A study of Mus musculus with 4 samples.

Results

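The 10 genes described here are Map2, Mapt, Stmn2, Rbfox3, Nefl, Nefm, Nes, Gap43, Snap25 and Ncam1, markers of neurons or their precursors. Apart from Rbfox3, which codes for an RNA-binding protein, they build the neuronal cytoskeleton, growth cone, synapse and cell surface. They are given by name, as 10 of the 21938 protein-coding genes annotated in the mouse, and the rule that defines them uses no methylation value. For each gene the CpG sites within 1 kb of the start site (here called the promoter) were kept apart from those in the rest of the gene record (the body), and the ESC to neuron change was taken separately in R1 and in Tet/Tet cells. A total of 400 promoter sites and 1405 body sites of these genes entered the comparison, where 63 sites at Nefl lie in the Nefm record as well and count for both genes.

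RRBS (reduced representation bisulfite sequencing) was made of 4 cell populations, with 1 library for each. R1 ESCs are mouse embryonic stem cells of a wild-type line, grown with leukemia inhibitory factor, and R1 neurons were derived from them. Tet/Tet ESCs descend from R1 cells in which tet-off constructs were knocked in behind the Dnmt1 promoter (genotype Dnmt1 Tet/Tet), which according to the methods leaves the cells with more DNMT1, the enzyme that copies CpG methylation after replication, also in the neurons they give. The Tet/Tet ESCs were grown in puromycin (1 µg/ml) and neomycin (150 µg/ml), R1 ESCs without them. Neither drug is given for the neurons of either line. Tet/Tet is a single engineered line. Both kinds of neurons came from 2 days as embryoid bodies followed by 10 to 15 days in Ndiff227 medium by the labels (the methods give a narrower range), and only a majority of such cells are described as neurons, so other cells may have been part of the DNA.

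The share of reads at a CpG that kept their cytosine, in percent, is given here as its methylation. No read numbers came with the percentages, so the depth of a site is unknown. With 1 library per population there was no replicate spread, and no test could be made. A gene's level is the plain mean over its sites listed in all 4 libraries (3 for Ncam1), a change is the neuron level minus the ESC level in percentage points, and a change of at least 10 points over at least 5 sites is counted. An SD given with a level is the spread over the gene's sites, not between cultures, and neighbouring sites can be read on the same fragments. The labels put the ESCs and the neurons in separate sequencing projects and describe another DNA extraction for neurons, so cell type and project cannot be told apart in any ESC to neuron change, whereas the R1 and Tet/Tet libraries of a cell type shared a project. RRBS measures no RNA, so the labelled cell types could not be checked against marker levels. Over the 1545651 sites listed in all libraries, mean methylation was 26.8% in ESCs and 53.3% in neurons of R1, and 28.1% and 10.9% in those of Tet/Tet, and the values of the 10 genes below have to be read against these levels.

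In mammals, CpGs across the body of a gene are usually methylated, while CpG-rich stretches (CpG islands) at start sites are usually not, in cells that use the gene and in most that do not. Neuronal genes often have such an island at the start site, and their start sites are then poorly methylated already in stem cells. Methylation over a gene body is common in transcribed and in silent genes, so that a level there does not by itself tell whether the gene is read.

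A few stretches are printed here to show sites behind values given further on, on the strand of the gene and in the GRCm38 (mm10) sequence. They were picked after their values were seen, so their values are descriptions. None overlaps an annotated exon or a CpG island, and the CpG dinucleotides are in capitals. The first holds the sites 883 to 795 bp upstream of the start of Snap25 (chr2:136712563-136712663, plus strand), where R1 neurons were far above the other libraries, and the second is the sequence just before that start (chr2:136713313-136713452, plus strand), where they were not.
Snap25 upstream: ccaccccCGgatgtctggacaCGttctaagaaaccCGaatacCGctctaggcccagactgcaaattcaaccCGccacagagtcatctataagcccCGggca
Snap25 before the start: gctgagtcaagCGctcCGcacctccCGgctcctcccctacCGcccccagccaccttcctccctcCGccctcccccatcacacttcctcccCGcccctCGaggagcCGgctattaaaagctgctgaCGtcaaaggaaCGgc
The Nes stretch lies in intron 2, with sites 2625 to 2838 bp downstream of the start (chr3:87973698-87973923, plus strand).
Nes intron 2: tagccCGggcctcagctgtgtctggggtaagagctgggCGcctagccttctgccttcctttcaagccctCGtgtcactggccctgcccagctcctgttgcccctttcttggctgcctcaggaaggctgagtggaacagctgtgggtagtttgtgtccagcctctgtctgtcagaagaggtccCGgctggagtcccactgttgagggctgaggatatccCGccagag
The last stretches lie in gene bodies, and their values differ from the means of those bodies. The Mapt stretch is from intron 8 (chr11:104316995-104317140, plus strand), low in ESCs and in Tet/Tet neurons. The Rbfox3 stretch is from intron 2 (chr11:118763687-118763912, minus strand), high in both ESC libraries.
Mapt intron 8: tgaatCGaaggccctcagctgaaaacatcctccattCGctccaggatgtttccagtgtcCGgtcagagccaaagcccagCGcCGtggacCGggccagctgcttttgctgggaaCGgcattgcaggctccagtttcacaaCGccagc
Rbfox3 intron 2: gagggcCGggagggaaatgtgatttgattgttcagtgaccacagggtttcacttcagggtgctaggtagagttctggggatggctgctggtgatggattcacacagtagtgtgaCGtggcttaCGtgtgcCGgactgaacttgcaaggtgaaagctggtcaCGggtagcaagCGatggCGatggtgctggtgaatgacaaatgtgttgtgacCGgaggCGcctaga

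Taken as a group, the promoters stayed poorly methylated in every library while the bodies separated the libraries widely. Of the 9 promoters with at least 5 shared sites, 1 (Snap25) was higher in R1 neurons than in R1 ESCs by the 10-point rule, beside 26.0% of 14284 promoters of all protein-coding genes, and 0 were lower, beside 0.112%. Of the 9 bodies with at least 5 shared sites, 7 were higher in R1 neurons, beside 94.5% of 14603 bodies of all genes. The bodies of Tet/Tet cells went the other way, with 6 of 8 lower in neurons, beside 75.9% of 11683 bodies, and 1 (Nefl) higher, beside 0.573%. Of the 8 promoters measured in Tet/Tet cells, 1 (Stmn2) was lower in neurons, beside 7.35% of 11466 promoters, and 0 were higher, beside 0.593%. The counts of bodies thus follow what most genes of these libraries did. Rbfox3 had no shared site near its start, Snap25 had 3 shared sites in its body, and Ncam1, on chromosome 9, was not analysed in Tet/Tet neurons, which accounts for the genes left out of each count.

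**Figure D1:**
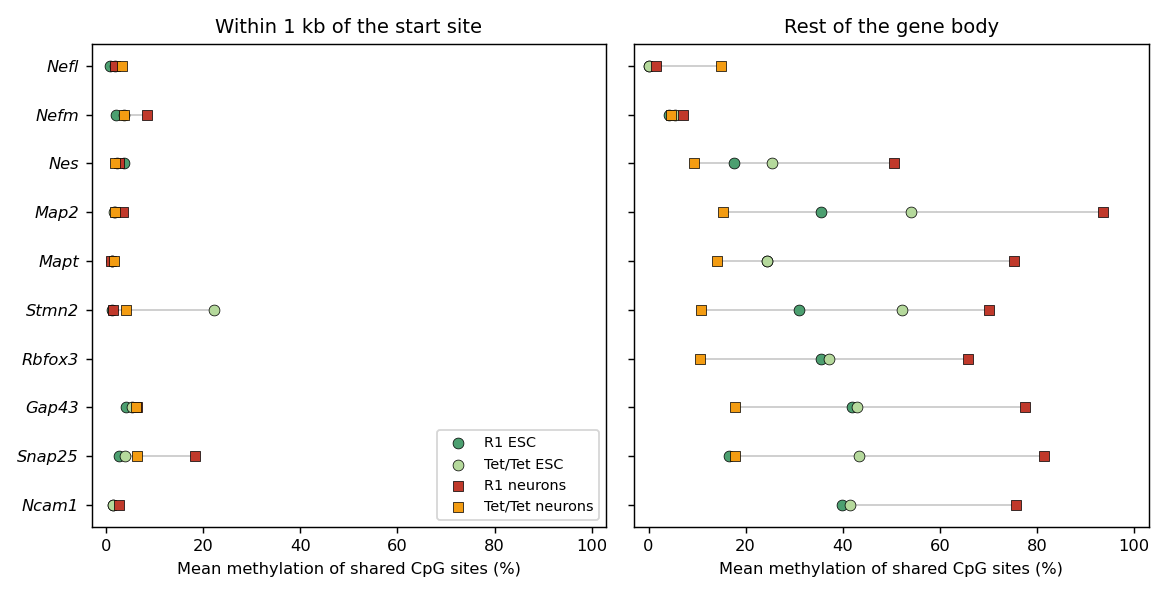
Mean methylation (%) of the shared CpG sites of each gene within 1 kb of the start site (left) and in the rest of the gene body (right). Each symbol is 1 library, circles for ESCs and squares for neurons, and a grey line spans the libraries of a gene. At the left all symbols lie near 0 apart from Snap25 in R1 neurons and Stmn2 in Tet/Tet ESCs. At the right R1 neurons are highest and Tet/Tet neurons lowest in most rows, with Nefl and Nefm near 0 in most libraries.

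The genes of the microtubule cytoskeleton are described first. Map2 (chr1:66175273-66442583, plus strand) codes for a protein that stabilises microtubules in dendrites. Its promoter, with an island at the start site, was at 1.83% in ESCs and 3.52% in neurons of R1, and 1.53% and 1.91% in those of Tet/Tet over 41 sites. Over 22 body sites the level was 35.6% (SD 33.3) in ESCs and 93.7% (SD 14.4) in neurons of R1, and 54.1% (SD 32.6) and 15.3% (SD 16.4) in those of Tet/Tet. The Map2 body was thus the most methylated of the 10 in R1 neurons, where 20 of its 22 sites were higher than in R1 ESCs by at least 10 points and 0 were lower, with a mean change of 58.1 points. Among Tet/Tet cells 17 of the 22 sites were lower in neurons by at least 10 points and 2 were higher, and the mean change was -38.8 points. Of its body sites 90.9% reached 80% methylation or more in R1 neurons and 0 did so in Tet/Tet neurons. The 6 exonic body sites went from 35.9% to 97.2% in R1 and from 75.8% to 13.2% in Tet/Tet, and the 16 intronic ones from 35.5% to 92.4% and from 45.9% to 16.0%. The 5 promoter sites outside the island went from 5.06% to 18.1% in R1 cells and from 1.48% to 0.995% in Tet/Tet cells. The R1 rise rests on 1 site 347 bp before the start, listed at 0 in R1 ESCs and 66.7% in R1 neurons. In R1 neurons the others were at or below 12.9%. The main transcript of Map2 starts 146446 bp downstream of the outermost annotated start, and its promoter lacked the needed sites. With that start the 25 exonic sites near the outermost start, poorly methylated in every library, count as body sites. The mean body change was then 27.6 points in R1 cells and -17.7 points in Tet/Tet cells, in place of 58.1 and -38.8. The values of the 22 sites themselves are the same under both starts.

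Mapt (chr11:104231390-104332090, plus strand) codes for tau, the microtubule-associated protein of axons. All 45 promoter sites lay in an island and stayed at or below 14.3% in every library, with means of 1.22% in ESCs and 1.04% in neurons of R1, and 1.22% and 1.52% in those of Tet/Tet. Both lines thus kept this start of Mapt nearly free of methylation, while with the windows of all its annotated transcript starts joined, the R1 change was 13.6 points, which is counted. Across 197 body sites the mean was 24.4% (SD 26.1) in ESCs and 75.3% (SD 31.8) in neurons of R1, and 24.4% (SD 27.8) and 14.1% (SD 13.2) in those of Tet/Tet. Apart from Nefl, the ESC libraries of the lines were closest here among the bodies, with a Tet/Tet minus R1 difference of -0.05 points, against -61.3 points between the neurons. In R1 cells 160 sites were higher in neurons, 9 lower and 28 within 10 points, and the mean change was 50.9 points. In Tet/Tet cells 73 sites were lower, 29 higher and 95 within 10 points, and the mean change of -10.3 points was the smallest fall of the 6 bodies counted as lower. That count for Mapt sits at the 10-point limit, since the change was -9.28 points on MspI fragments of 40 to 220 bp, -9.98 points with each library's own sites and -0.43 points by the median over sites. Exons and introns of Mapt differed in size of change. At 51 exonic sites R1 cells went from 19.1% to 88.9% and Tet/Tet cells from 19.1% to 18.6%, while at 146 intronic sites R1 cells went from 26.3% to 70.6% and Tet/Tet cells from 26.2% to 12.5%. The 16 body sites that lie in islands hardly moved in R1 cells, at 3.81% in ESCs and 1.97% in neurons, against 26.2% and 81.8% at the 181 sites outside. All of these island sites count as intronic. So do sites 87588 to 88022 bp from the start, at 3.70% to 33.3% in R1 neurons. Part of the difference between exons and introns in R1 cells therefore comes from such sites.

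The Mapt intron 8 stretch printed above spans 146 bp. Its 8 sites averaged 8.62% in ESCs and 91.8% in neurons of R1, and 19.5% and 13.2% in those of Tet/Tet. In R1 neurons they ranged from 80% to 100%, and in R1 ESCs from 0 to 21.4%. As the stretch was picked after its values were seen, this contrast is larger than that of the whole Mapt body. There R1 cells went from 24.4% to 75.3%. The Tet/Tet ESC mean rests in part on 1 site listed at 100%, the first of the stretch, the others lying at or below 14.5%.

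Stmn2 (chr3:8509360-8561606, plus strand) codes for stathmin 2, which binds tubulin dimers and is needed for axon growth and repair. It has no CpG island at its start, and its 10 shared promoter sites all lie downstream of the start, in intron 1, so the start itself was not measured. These sites averaged 1.27% in ESCs and 1.41% in neurons of R1, and 22.3% and 4.15% in those of Tet/Tet. Tet/Tet ESCs stood alone, with 9 of the 10 sites between 16.5% and 40% and 1 at 0, where R1 ESCs had no site above 6.25%. Stmn2 was the 1 promoter of 9 in which Tet/Tet ESCs exceeded R1 ESCs by at least 10 points, beside 2.44% of 14284 promoters of all genes. From ESCs to neurons the Tet/Tet level changed by -18.2 points, with 8 sites lower, 1 higher and 1 within 10 points, and the R1 level by 0.14 points.

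In the Stmn2 body the same order of the ESC lines was seen over 29 sites, all in introns and outside islands. Levels were 30.9% (SD 33.5) in ESCs and 70.2% (SD 35.7) in neurons of R1, and 52.3% (SD 26.9) and 10.8% (SD 13.2) in those of Tet/Tet. Stmn2 and Map2 were the 2 of 9 bodies at which Tet/Tet ESCs were above R1 ESCs by at least 10 points, by 21.3 and 18.5 points, beside 11.1% of 14603 bodies of all genes. The R1 change of 39.3 points had 24 sites up and 0 down, and the Tet/Tet change of -41.5 points, the largest fall among the 8 bodies, had 24 down and 0 up. The 2 body sites within 1 kb of another transcript start were low in R1 neurons at 6.21%, against 74.9% at the 27 sites farther away. These 2 sites also lie just past the promoter window, 1057 and 1097 bp from the start used here. The next sites, at 1861 to 2258 bp, were at 12.5% to 50% in R1 neurons.

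**Figure D2:**
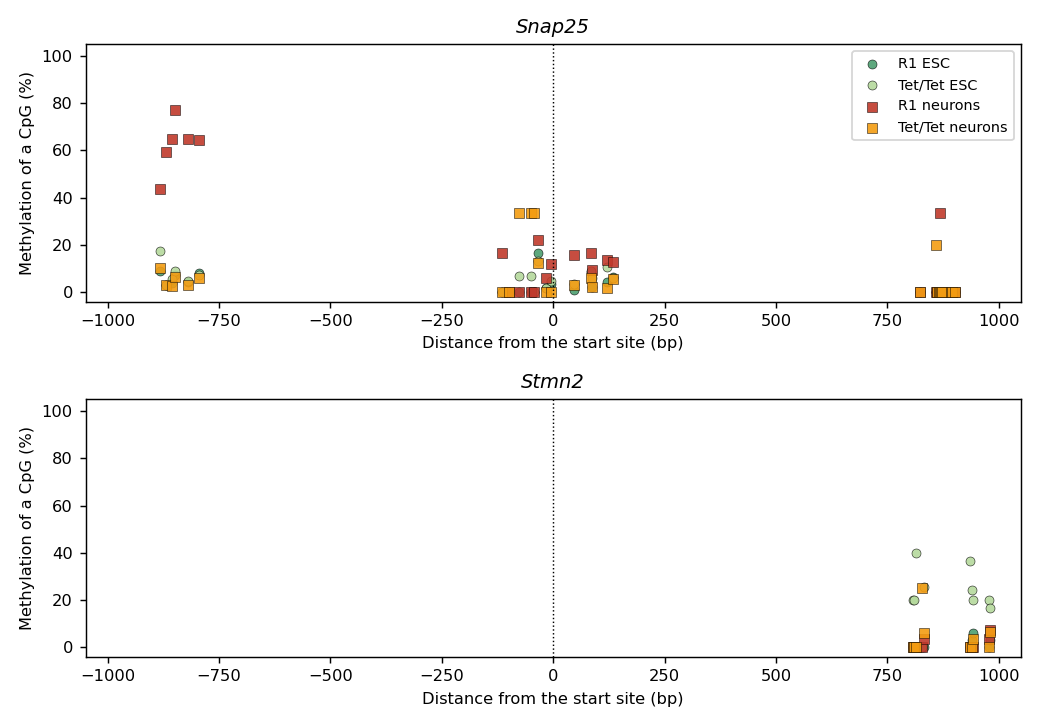
Methylation (%) of each shared CpG within 1 kb of the start of Snap25 (top) and Stmn2 (bottom), against distance from the start site in bp, negative upstream. Each symbol is 1 site in 1 library. R1 neurons lie between 43.5% and 77.2% at the 6 upstream sites of Snap25, and Tet/Tet ESCs lie above the other libraries at most of the 10 sites of Stmn2.

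Snap25 (chr2:136713453-136782428, plus strand) codes for a SNARE protein of the presynaptic membrane, needed for vesicle fusion. Its promoter was the one that changed in R1 cells. Over 29 sites, none in an island, the mean was 2.72% (SD 4.02) in ESCs and 18.3% (SD 24.8) in neurons of R1, and 3.97% (SD 4.67) and 6.27% (SD 10.4) in those of Tet/Tet. Most of the R1 change of 15.6 points came from the 6 sites of the upstream stretch printed above, 883 to 795 bp before the start. There R1 cells went from 5.87% to 62.4%, with changes of 34.7 to 70.0 points at the single sites, while Tet/Tet cells stayed low, at 7.82% and 5.22%. In R1 neurons these 6 sites were at 43.5%, 59.4%, 65.0%, 77.2%, 64.6% and 64.5% in order toward the start, and no site of the other libraries was above 17.3%. Nearer the start the differences of the means were smaller. The 13 sites within 700 bp were at 3.36% in ESCs and 9.56% in neurons of R1, and 5.25% and 10.0% in those of Tet/Tet, and the 10 sites over 700 bp downstream were at 0 and 3.33% in R1 and at 0 and 2.00% in Tet/Tet. With the window narrowed to 500 bp the R1 change was 6.20 points, and by the median over sites it was 9.49 points, neither of which is counted, while widened to 2 kb it was 27.5 points. In the second Snap25 stretch, just before the start, 3 sites were listed at 33.3% in Tet/Tet neurons and 0 in R1 neurons. They raise the Tet/Tet neuron mean of the 13 sites within 700 bp. At the 5 exonic sites of the promoter, levels went from 4.44% to 13.6% in R1 and from 7.08% to 3.62% in Tet/Tet.

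The 3 body sites of Snap25 listed in all libraries, too few to be counted, averaged 16.7% in ESCs and 81.5% in neurons of R1, and 43.3% and 17.8% in those of Tet/Tet. All 3 were higher in R1 neurons than in R1 ESCs by at least 10 points.

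Rbfox3 (chr11:118489762-118911597, minus strand) codes for NeuN, an RNA-binding splicing regulator found in the nuclei of most mature neurons. It gave the most body sites, 915, and no shared promoter site. Of the 23 CpGs within 1 kb of its outermost annotated start 3 were listed, all in Tet/Tet neurons. Its body was at 35.5% (SD 32.2) in ESCs and 65.9% (SD 38.8) in neurons of R1, and 37.1% (SD 33.0) and 10.7% (SD 13.7) in those of Tet/Tet. In R1 cells 603 sites were higher in neurons and 20 lower, and in Tet/Tet cells 510 were lower and 26 higher, by at least 10 points. The body held islands, and these behaved unlike the rest. At 261 island sites the levels were 6.63% in ESCs and 14.9% in neurons of R1, and 8.54% and 3.79% in those of Tet/Tet. At the 654 sites outside islands they were 47.0% and 86.2% in R1 and 48.5% and 13.4% in Tet/Tet. A similar division was seen by distance to other transcript starts of Rbfox3, with 285 sites within 1 kb of one at 17.7% in R1 neurons and the other 630 sites at 87.7%. The intron 2 stretch printed above belongs to the second kind. Its 9 sites averaged 74.1% in ESCs and 90.9% in neurons of R1 and 82.9% in Tet/Tet ESCs, all at or above 59.5%, and 17.7% in Tet/Tet neurons, all at or below 26.5%.

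**Figure D3:**
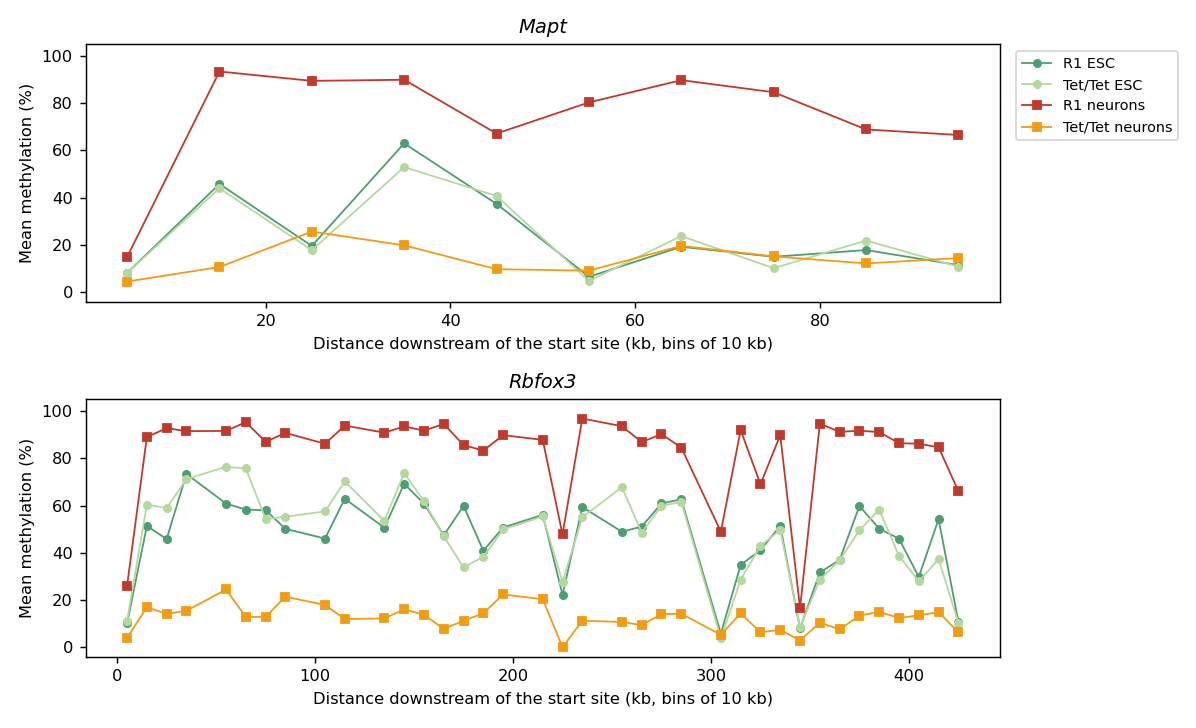
Mean methylation (%) along Mapt (top) and Rbfox3 (bottom) in bins of 10 kb with at least 3 shared sites, against distance downstream of the start site in kb. Each line is 1 library. R1 neurons run above the other libraries in the bins plotted, Tet/Tet neurons run lowest in nearly all bins of Rbfox3, and along Mapt the ESC lines come down to the level of Tet/Tet neurons in several bins.

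The intermediate filament genes did not share one pattern. Nefl (chr14:68083863-68089095, plus strand), the neurofilament light chain that forms the core of axonal filaments, has a promoter in an island at 0.693% in ESCs and 1.76% in neurons of R1, and 1.91% and 3.21% in those of Tet/Tet over 58 sites. The 5 shared sites of its body lie in the same island within 1069 bp of the start, at 0 in both ESC libraries, at 1.54% in neurons of R1 and at 15.0% in those of Tet/Tet. The Tet/Tet value comes from 1 site listed at 75.0% with the other 4 at 0, and the median over sites did not change, so that its count as higher rests on that site. The body of Nefl beyond its island was not measured at shared sites.

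Nefm (chr14:68082590-68124846, minus strand) codes for the neurofilament medium chain. Its promoter was at 2.07% (SD 3.38) in ESCs and 8.33% (SD 10.1) in neurons of R1, and 3.59% (SD 5.94) and 3.66% (SD 6.02) in those of Tet/Tet over 77 sites. The R1 change of 6.26 points, with 14 sites up and 0 down, was the second largest among the 9 promoters and is under the 10-point limit. Its body stayed low as well, at 4.15% in ESCs and 7.04% in neurons of R1 and at 5.47% and 4.57% in Tet/Tet over 77 sites. That record is that of a long transcript which runs over Nefl on the opposite strand, and 63 of its 77 body sites lie in Nefl or within 1 kb of the Nefl start, so the sites are shared by both genes. Without them, an alternative added after the data were seen, the 14 remaining sites went from 19.96% to 30.9% in R1 cells, a change of 10.9 points, and changed by -15.7 points to 6.51% in Tet/Tet cells, and both changes are then counted. With each library's own sites the R1 body change was 20.99 points, which is counted too. The 4 Nefm body sites outside islands went from 62.6% to 95.1% in R1 and from 72.4% to 18.0% in Tet/Tet.

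Nes (chr3:87971078-87980451, plus strand) codes for nestin, the intermediate filament of neural precursors, which is given up as neurons mature. The promoter, again with an island, was at 3.74% in ESCs and 2.66% in neurons of R1, and 2.18% and 1.92% in those of Tet/Tet over 72 sites. The R1 change of -1.08 points comes mostly from 1 site 38 bp before the start, listed at 100% before and 20% after differentiation of R1. Over 11 body sites Nes was at 17.5% (SD 18.2) in ESCs and 50.6% (SD 33.0) in neurons of R1, and 25.4% (SD 31.8) and 9.398% (SD 11.2) in those of Tet/Tet. R1 neurons were thus above the other libraries, but less so than in Map2 or Gap43. The R1 change of 33.1 points ran from 12.1 with a promoter window of 500 bp to 53.9 with each library's own sites. The narrower window counts poorly methylated island sites of the promoter as body sites. The 4 sites of the intron 2 stretch printed above went from 15.1% to 55.1% in R1 cells and from 10.3% to 3.10% in Tet/Tet cells. The 6 sites of intron 1 went from 22.0% to 39.3% and from 23.0% to 9.61%. The Tet/Tet change of -16.0 points over the body rests in part on 1 exonic site listed in Tet/Tet cells at 100% before and 33.3% after differentiation, and it was -6.40 points by the median and -6.0 points with a promoter window of 500 bp, neither of which is counted.

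Gap43 (chr16:42248442-42340651, minus strand) codes for a growth cone protein that is abundant during axon outgrowth. Its promoter has no island and few CpGs, and over 11 sites stood at 4.16% in ESCs and 6.31% in neurons of R1, and 5.32% and 6.05% in those of Tet/Tet, so that no library stood apart. Its body, over 26 sites and all outside islands, was at 42.0% (SD 30.8) in ESCs and 77.5% (SD 34.3) in neurons of R1, and 43.0% (SD 27.7) and 17.9% (SD 22.6) in those of Tet/Tet. The changes were 35.5 points in R1 cells, with 19 sites up and 1 down, and -25.2 points in Tet/Tet cells, with 18 down and 1 up. The 9 exonic sites differed more between the neurons, at 93.2% in R1 and 12.3% in Tet/Tet, than the 17 intronic sites, at 69.2% and 20.8%.

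Ncam1 (chr9:49502136-49798925, minus strand) codes for the neural cell adhesion molecule. Its promoter was at 1.45% in ESCs and 2.73% in neurons of R1, and at 1.42% in Tet/Tet ESCs, over 57 sites. Its body was at 39.9% (SD 34.0), 75.6% (SD 35.4) and 41.5% (SD 33.8) in the same order over 120 sites, of which 83 were higher and 2 lower in R1 neurons than in R1 ESCs. The 21 body sites in islands stayed near 1% in these libraries, at 1.18%, 1.13% and 1.48%, while the 99 outside went from 48.1% in R1 ESCs to 91.4% in R1 neurons.

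Promoter and body were then set against each other within each gene. In R1 cells the body change was above the promoter change by at least 10 points in 6 of 8 genes (Map2, Mapt, Stmn2, Nes, Gap43 and Ncam1), beside 81.6% of 11576 genes, with a median gap of 34.3 points against 34.5 over all genes. The widest gap was that of Map2, at 56.4 points, and Nefm was at -3.37 points, or at 12.2 points, which is counted, with each library's own sites. In Tet/Tet cells the body change was below the promoter change in 5 of 7 genes (Map2, Mapt, Stmn2, Nes and Gap43), beside 72.9% of 9215 genes. The median gap was -15.7 points against -22.5 over all genes, from -39.2 points in Map2 to 13.7 points in Nefl. Between the neurons, Tet/Tet bodies were below R1 bodies by at least 10 points in 6 of 8 genes, beside 96.2% of 11683, the others being Nefm at -2.46 points and Nefl at 13.5 points. Without the sites it shares with Nefl, Nefm was at 30.9% in the neurons of R1 and 6.51% in those of Tet/Tet. Between the neurons it was then no exception, and 6 of 7 gaps were counted in Tet/Tet cells. In R1 cells its gap stayed under the 10-point limit, with a body change of 10.9 points and a promoter change of 6.26 points.

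**Figure D4:**
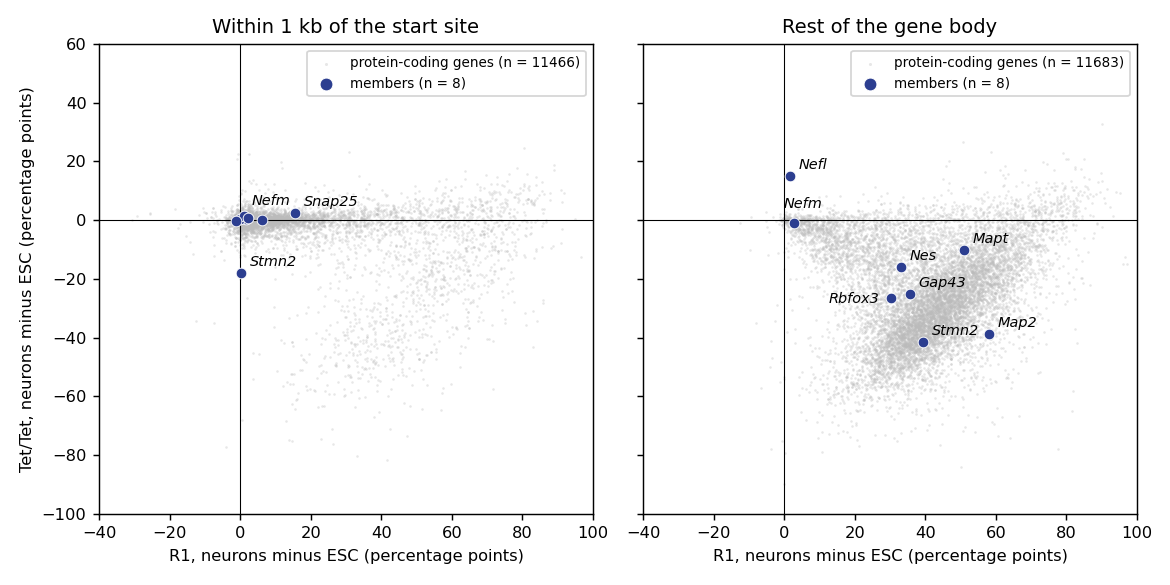
Change from ESCs to neurons in Tet/Tet cells against the change in R1 cells, both in percentage points, for promoters (left, 11466 genes) and bodies (right, 11683 genes). Grey points are protein-coding genes with at least 5 shared sites and blue points are the 8 genes described here that had them. The blue points lie within the grey cloud near 0 at the left apart from Stmn2 and Snap25, and well below 0 on the vertical axis at the right apart from Nefl and Nefm.

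The median body change of these genes was 35.5 points in R1 cells, against 40.4 points over all genes, and -20.6 points in Tet/Tet cells, against -24.7 points. The median promoter change was 1.28 points in R1 cells (0.50 to 6.24 over the alternatives, the highest with the sites outside islands), against 2.37 points over all genes, and 0.34 points in Tet/Tet cells, against -0.08 points. The order of body levels in R1 neurons ran from Map2 at 93.7% through Gap43, Ncam1, Mapt, Stmn2, Rbfox3 and Nes to Nefm and Nefl, with Snap25 left out for its few sites. Without replicates it cannot be said which neighbours in this order differ.

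How near a site was to the start, and whether it lay in an island, went together with its change. Medians were taken over the genes with at least 3 sites in a class, with Ncam1 left out. The median level in R1 neurons was 2.25% up to 250 bp from the start, 5.11% at 250 to 500 bp and 3.41% at 500 bp to 1 kb. It was 24.8% at 1 to 5 kb, 91.7% at 5 to 20 kb and 80.5% beyond. In Tet/Tet neurons it was 1.72%, 1.90%, 4.15%, 7.01%, 11.1% and 15.3% in the same classes. The median change in R1 cells was 0.38, 0, 1.85, 16.2, 43.0 and 41.9 points in these classes. In Tet/Tet cells it was 0.03, 0.54, -0.76, -10.4, -37.6 and -25.6 points. The different classes hold different genes, from 4 to 7 of them. The last class includes the Nefm sites that lie at Nefl. Body sites were also pooled over the genes other than Ncam1, where most sites are those of Rbfox3. At 356 island sites the change was 6.5 points in R1 cells and -2.59 points in Tet/Tet cells. At 929 sites outside islands it was 42.7 and -30.4 points.

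**Figure D5:**
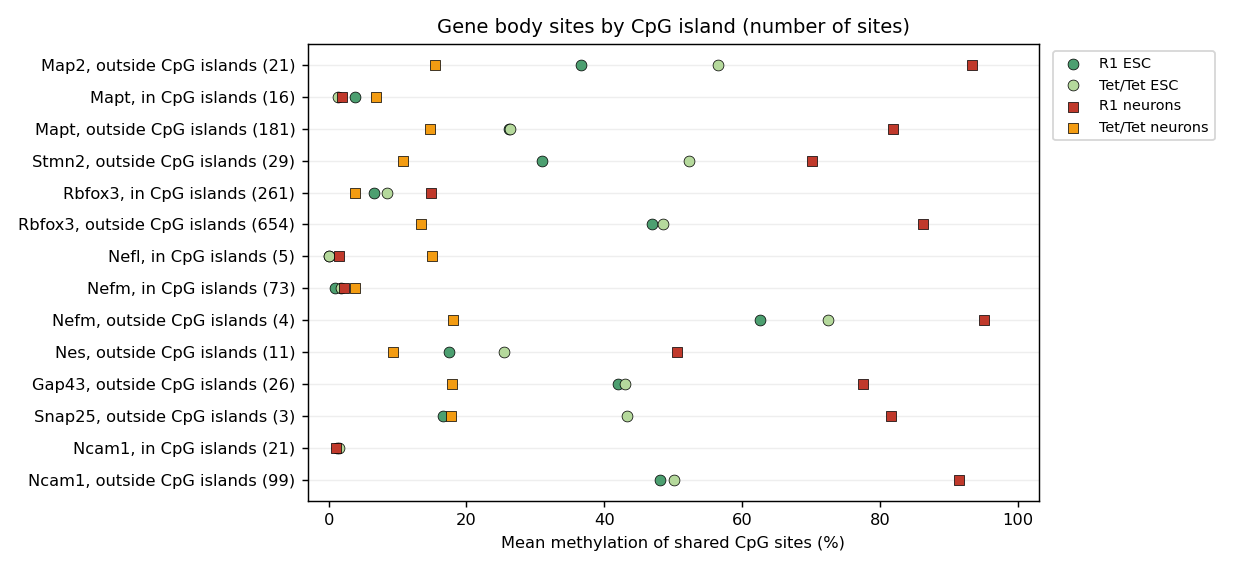
Mean methylation (%) of gene body sites in and outside CpG islands, for each gene with at least 3 shared sites of a kind, with the number of sites in brackets. Each symbol is 1 library. Rows of island sites lie near the left edge in nearly all libraries, while rows of sites outside islands spread from Tet/Tet neurons at the left to R1 neurons at the right.

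Other genes of the same kind were taken from lists by role. Of 47 other neuronal genes, 13 of the 45 promoters with enough sites were higher in R1 neurons by at least 10 points, beside 26.0% of all promoters, and 0 were lower, beside 0.112%, with a median change of 4.24 points. In Tet/Tet cells 0 of 38 were counted in either direction, beside 0.593% higher and 7.35% lower. The largest rise in the promoter was that of Stmn4, a relative of Stmn2, from 11.2% to 61.6%, and the lowest change was that of Uchl1, a neuronal ubiquitin hydrolase, at -3.38 points. In Tet/Tet cells the promoter changes ran from -3.71 points in Stx1a, a SNARE partner of Snap25, to 2.81 points in Dclk1, a microtubule-binding kinase. Of their bodies, 39 of 40 were higher in R1 neurons, beside 94.5% of all bodies, from Tubb2b, a neuronal tubulin, at 95.2 points over 7 sites to Marcks, an actin-binding protein of growth cones, at -0.22 points. Of the Tet/Tet bodies 22 of 33 were lower, beside 75.9% of all bodies, and 0 higher, from Dclk1 at -42.5 points to Tubb2b at 9.15 points. Among the other intermediate filament genes (Nefh, Ina, Prph and Vim), 4 of 4 bodies were higher in R1 neurons, and 2 of 4 were lower in Tet/Tet neurons. Of their promoters, 1 was counted as higher in R1 neurons, that of Prph (peripherin), from 2.44% to 12.9%, while that of Nefh went from 2.90% to 3.44%.

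Cytoskeleton genes that all cells use gave a similar picture in their bodies. Of 21 such genes, 0 of 21 promoters were counted in either line, where 26.0% of all promoters were higher in R1 neurons, and the R1 changes ran from -3.76 points in Pfn1 (profilin) to 9.18 points in Flna (filamin A). The Tet/Tet changes ran from -3.36 points in Flna to 1.56 points in Actg1 (cytoplasmic actin). All 18 bodies with enough sites were higher in R1 neurons, beside 94.5% of all bodies, from 10.95 points in Cfl1 (cofilin) to 70.0 points in Arpc2, a subunit of the actin-branching complex. Of the Tet/Tet bodies 12 of 18 were lower, beside 75.9%, and 0 higher, from -42.4 points in Msn (moesin) to 4.79 points in Tubb5 (tubulin).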

How the data were processed

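Genomic DNA of ESCs and neurons of R1 and of Tet/Tet was cut with MspI, bisulfite converted and sequenced, with 1 library per population. The authors trimmed reads with Trim Galore 0.6.4, mapped them to mm10 with Bismark 0.19.0 and called CpGs with MethylDackel 0.3.0, and deposited 1 track per library with the methylation of each CpG in percent, from 0 to 100, without read numbers. The tables listed 2311939 sites in ESCs and 5298360 in neurons of R1, and 2936767 and 3979487 in those of Tet/Tet. As depth per site is unknown, no read minimum, interval or p-value was used.

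Sites were placed on GRCm38 with GENCODE M21 genes in Python 3.11.15 (numpy 2.4.6, pandas 2.3.3, numba 0.67.0, matplotlib 3.10.9). For a CpG island, more than 200 bp, a GC content of 50% or more and over 0.6 of the CpGs that base composition predicts were required. Levels were unweighted means over sites listed in all libraries. Counts needed 5 sites and a change of 10 points, for every protein-coding gene alike, and the calculation was tested on simulated data. The 10 genes, the lists of other genes and the limits were chosen with earlier results of these data known. Named in the text are all 10 genes and, of each list, the genes with the largest rise and fall per line and region. The other intermediate filament genes, and the 5 printed stretches, were named after their values were seen. In Tet/Tet neurons chromosomes 8 and 9, chromosome 7 from 55762982 and chromosome 10 up to 128096802 were not analysed here, and 1 further sequence is not reported here. Alternatives concerned the sites, the window, the start site, the limit and the mean.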

Additional observations from a re-analysis of the deposited data

Results flagged for a closer look

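These results stood out because the changes from ESCs to neurons had opposite signs in the 2 lines and at least 1 of them reached 10 points. With 1 library per population none of these differences was tested, and cell type cannot be told apart from sequencing project. Each value is the Tet/Tet change minus the R1 change in percentage points. In the bodies it was -96.9 for Map2 (58.1 in R1 and -38.8 in Tet/Tet), -80.7 for Stmn2 (39.3 and -41.5), -61.2 for Mapt (50.9 and -10.3), -60.7 for Gap43 (35.5 and -25.2), -56.8 for Rbfox3 (30.4 and -26.4) and -49.1 for Nes (33.1 and -16.0). At the promoter of Stmn2 it was -18.3, from 0.14 in R1 and -18.2 in Tet/Tet. That R1 value is near 0, so its sign has little meaning. The median body changes over all protein-coding genes were also of opposite sign, at 40.4 points in R1 and -24.7 points in Tet/Tet. By the 10-point rule 94.5% of all bodies were higher in R1 neurons and 75.9% were lower in Tet/Tet neurons. The share of all genes that meet both conditions of the flag is not given.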

How the results depend on the processing

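No paired analysis was possible because each population has 1 library. There are no replicates and no read numbers, so values are compared by size only. Of 595 values of single genes under alternatives, 490 moved by less than 5 points, 104 moved by more and, of the values past the 10-point limit, 1 changed sign. That one is the Tet/Tet body minus promoter change of Nefl, -0.0172 by the median over sites. Values under the limit changed sign too, such as the R1 gap of Nefm (-3.37, and 12.2 with each library's own sites) and the Tet/Tet promoter of Snap25 (2.30, and -6.50 with a 2 kb window). The number of reads behind a site is unknown, so values that rest on few reads cannot be told from the others. For the values below the cause of the shift was not tested. A change of the window or of the start site by definition moves sites between promoter and body. Counts under the alternatives are given without the shares over all genes. A shift of these genes can therefore not be told from a shift of all genes. With each library's own sites the median R1 body change was 43.1 points, the R1 gap between body and promoter 41.0, the Tet/Tet body change -34.2 and the Tet/Tet gap -25.0. By the median over sites the R1 body change was 53.1, the R1 gap 48.9 and the Tet/Tet gap -6.59, with 0 promoters counted in R1 and 3 gaps in Tet/Tet. A promoter window of 2 kb gave 42.5, 40.2 and, for the Tet/Tet gap, -22.8, with 2 promoters counted in R1. A window of 500 bp gave 29.4 and 21.6 in R1 and -10.1 and -9.16 in Tet/Tet, with 0 promoters counted in either line and 3 Tet/Tet gaps. MspI fragments of 40 to 220 bp gave an R1 gap of 42.6 and left 3 bodies and 2 gaps counted in Tet/Tet. Sites listed in both libraries of a line gave -31.6 and -21.4 in Tet/Tet, and sites outside islands -30.1 and -24.6, with 2 promoters counted in R1 (Snap25 and Map2). The Map2 count rests on the 1 site listed at 66.7% in R1 neurons. The start of any transcript gave a Tet/Tet gap of -20.8 and 3 promoters counted in R1. A limit of 25 points left 0 promoters in either line and 2 gaps in Tet/Tet.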
